A study of Homo sapiens with 54 samples.

Results

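The 10 genes described here encode 3 actins (*ACTB*, *ACTG1*, *ACTA2*), 2 alpha-actinins (*ACTN1*, *ACTN4*), 2 tropomyosins (*TPM1*, *TPM2*), 2 proteins of the calponin family (*TAGLN*, *CNN1*) and a myosin light chain (*MYL9*). They were chosen by name, with earlier results of these data known. All 10 were found among the 55906 rows of each of 4 expression tables, 1 per cell line. The tables hold RNA-seq levels, as TPM (transcripts relative to a fixed total per library), of 54 libraries in 18 conditions of 3 replicates, made to ask how cancer cells respond to loss of the paralogous splicing factors *TRA2A* and *TRA2B*. A549 and NCI-H23, a pair of lung cancer lines, carried Zim3-dCas9, a repressor for CRISPR interference, and received control guides (Control KD), *TRA2A* guides (TRA2A KD), *TRA2B* guides (TRA2B KD) or guides to both genes (TRA2A/B DKD). LN229 and LN319, both glioma lines, received Cas9. Those overexpressing luciferase (Luc) carried control guides (Luc Control KO), *TRA2A* guides (Luc TRA2A KO) or *TRA2B* guides (Luc TRA2B KO). Those overexpressing *TRA2B* (TRA2B-OE) carried control or *TRA2A* guides. The study's methods describe drug-selected populations after lentiviral transduction. No source names separate cultures behind the replicate numbers, so the p-values measure only the spread between these libraries, which may be technical.

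Actin monomers assemble into filaments that give cells their shape, and non-muscle cells build them from the cytoplasmic beta and gamma isoforms encoded by *ACTB* and *ACTG1*. Alpha-actinins tie filaments into bundles, tropomyosins wind along them, and myosin II, switched on by phosphorylation of its regulatory light chain, pulls on them. Many of these genes are transcriptional targets of serum response factor (*SRF*), whose coactivators *MRTFA* and *MRTFB* are held back by free actin monomers.

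The *ACTB* row was low in every table, beside a high *ACTG1* row. *ACTB* lay between 44.4 and 80.2 TPM in A549, 47.1 and 95.5 in NCI-H23, 52.5 and 80.9 in LN229, and 50.6 and 68.8 in LN319. *ACTG1* lay between 3104 and 4573 TPM in A549, 1273 and 2363 in NCI-H23, 2331 and 4185 in LN229, and 2864 and 6036 in LN319. *ACTB* therefore made up between 1.02% and 4.47% of the summed level of both genes, although both are abundant cytoplasmic actins. The 34 rows of actin pseudogenes and of the actin-bearing POTE genes together reached at most 27.0 TPM in a library, with *ACTG1P20* (A549, LN229, LN319) and *POTEF* (NCI-H23) at their head. The columns themselves fell short of the fixed TPM total by 35390 to 71092. *TPM4*, a tropomyosin gene singled out after its values were seen, was also low, between 2.74 and 13.7 TPM. The cause of these low rows was not tested.

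How alike both actin messages are can be seen from their sequences. In Gencode v44 on hg38, *ACTB* lies at chr7:5526409-5563902 and *ACTG1* at chr17:81509413-81523847, both on the minus strand. The coding sequences of their canonical transcripts are both 1128 bases long and are identical at 1029 bases (91.2%). The first 60 coding bases are shown because they hold 10 of the 99 differences, here in capitals.

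ACTB: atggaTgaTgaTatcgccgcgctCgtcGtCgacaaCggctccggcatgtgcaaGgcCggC

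ACTG1: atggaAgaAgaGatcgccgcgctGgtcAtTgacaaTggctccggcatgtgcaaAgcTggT

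Of the 1098 stretches of 31 bases in the *ACTB* coding sequence, 76 (6.92%) also occur in that of *ACTG1*, and the longest identical run is 59 bases. Over whole canonical transcripts, 30.1% of the *ACTB* stretches occur in transcripts of some other gene, most often the pseudogene *ACTBP2* (10.4%), against 20.8% for *ACTG1*. Of the other 8 genes, *TAGLN* shares 65.7% with an overlapping unnamed gene, ENSG00000280143, and *ACTN4* shares 6.61%, while the rest share at most 2.33%. Reads can be split between such rows, so the *ACTB*, *ACTG1* and *TAGLN* levels are uncertain. The shares of stretches do not measure by how much.

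A promoter window was found for 7 of the 10 genes in the RefSeq table (GRCh38.p14), 13 windows in all, and a CArG box, the site bound by *SRF*, was searched on both strands together with TATAAA. The box was searched strictly as CCWWWWWWGG, where W is A or T. In that form a window of *ACTG1* and a window of *ACTN1* each held it, and no window of *ACTA2*, *ACTN4*, *TPM1*, *TPM2* or *CNN1* did. Looser forms were not searched. A window of *ACTA2* holds ccctatatgg and ccttgtttgg, which have a C or a G in place of a W and were not counted. To show the box in its place, the 250 bases before both starts are printed, with matches in capitals.

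ACTG1, chr17:81512800-81513049, minus strand: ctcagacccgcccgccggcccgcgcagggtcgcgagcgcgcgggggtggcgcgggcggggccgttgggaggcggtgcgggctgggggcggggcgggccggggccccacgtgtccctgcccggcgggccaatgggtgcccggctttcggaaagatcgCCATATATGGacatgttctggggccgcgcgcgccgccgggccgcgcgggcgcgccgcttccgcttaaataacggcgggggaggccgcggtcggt

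ACTN1, chr14:68977567-68977816, minus strand: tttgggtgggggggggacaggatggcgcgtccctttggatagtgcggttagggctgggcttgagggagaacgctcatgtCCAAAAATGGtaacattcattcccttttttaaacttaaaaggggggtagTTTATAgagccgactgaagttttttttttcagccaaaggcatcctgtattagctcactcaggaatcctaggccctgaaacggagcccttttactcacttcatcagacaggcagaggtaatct

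The box began 94 bases before the *ACTG1* start and 171 bases before 1 of 4 *ACTN1* starts. Across all 35116 windows of the table, 454 (1.29%) held a CArG box and 4049 (11.5%) held TATAAA, which among the 13 windows was found in this *ACTN1* window alone, on the other strand. The matches describe letters in these windows and do not show binding.

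Facts of the whole series that touch these results are few. The TPM of a library summed to between 928908 and 964610, and TPM keep no record of depth, so errors are those between replicates. *TRA2A* fell from a mean of 75.1 to 7.18 TPM in A549 TRA2A KD and from 104.6 to 6.84 in NCI-H23, while in the knockouts, where edited messages can persist, it was 68.8 against 109 TPM in LN229 and 35.5 against 107 in LN319. *TRA2B* was 13.3 against 137 TPM in A549 TRA2B KD, 9.75 against 92.2 in NCI-H23, 147 against 222 in LN229 and 30.8 against 87.6 in LN319, and reached 832 and 765 TPM in the TRA2B-OE controls of LN229 and LN319. A549 Control KD replicate 3 stood apart, with a median correlation of 0.837 to the other A549 libraries, the lowest of 12. Keratins *KRT8* and *KRT18* were at 445 TPM or more in both lung lines, while *KRT7* was at 3250 or more in A549 and at most 4.49 in NCI-H23. The epithelial marker *EPCAM* reached at most 3.77 in A549 and 1.74 in NCI-H23. *CDH1* reached at most 25.2 and 2.47, and *KRT19* at most 26.7 and 0.604. *VIM* was at 2260 TPM or more in both glioma lines, and at 835 to 1690 over both lung lines. All 6 glioma markers averaged 1 TPM or more in LN229, with *NES* at 213 to 286 and *SOX2* at 20.4 to 90.8. In LN319, *SOX2* was at 316 to 490 TPM, *NES* at 6.12 to 14.7, and *OLIG2* and *S100B* were near 0 (at most 0.14 and 1.07). *GFAP* reached at most 3.77 there, and *CDH1* was at 116 to 150. The 7 smooth muscle and pericyte markers summed to between 4.8 and 31.6 TPM in a library, most of it *RGS5* in the glioma lines (up to 25.1). *MYH11*, *DES* and *LMOD1* stayed at or under 1.48 TPM. *MYOCD* reached 4.46 in A549, *PDGFRB* 5.4 in LN229 and *SYNPO2* 1.89 in LN319.

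Levels differed widely between genes and lines, and since the tables were made separately they are placed side by side with no test. *ACTN4* (chr19:38647649-38731589, plus strand) lay between 914 and 2455 TPM in A549, 597 and 805 in LN319, 391 and 539 in LN229, and 109 and 172 in NCI-H23, and these ranges do not overlap. *ACTN1* (chr14:68874128-68979440, minus) was more even, with a lowest value of 148 TPM in LN319 and a highest of 394 in NCI-H23. *TPM1* (chr15:63042620-63071915, plus) lay between 766 and 1227 TPM in A549, 635 and 1099 in LN229, 180 and 432 in LN319 and 90.8 and 192 in NCI-H23, so A549 and LN229 overlap and the lowest LN319 values reach into the NCI-H23 range. *TPM2* (chr9:35681992-35690056, minus) had another order, from 1370 to 1866 TPM in NCI-H23 down to 153 to 209 in LN229. *TPM2* thus stood above *TPM1* in every NCI-H23 library and below it in every LN229 library.

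The genes best known from smooth muscle each had a line in which they were highest. *ACTA2* (chr10:88935074-88991339, minus), the smooth muscle alpha-actin, lay between 34.4 and 61.7 TPM in LN229, 17.6 and 30.7 in A549, 2.55 and 6.70 in LN319 and 0.939 and 4.85 in NCI-H23. *TAGLN* (chr11:117199370-117207464, plus), which encodes transgelin, lay between 37.0 and 137 TPM in A549 with a range of 4.55 to 40.7 over the other 3 lines. *CNN1* (chr19:11538767-11550323, plus), calponin 1, never exceeded 4.02 TPM, and it was too low to be tested in NCI-H23. *MYL9* (chr20:36541497-36551447, plus) was a gene of 1 line, with 39.3 to 115 TPM in NCI-H23, at most 8.78 in A549, at most 6.41 in LN319 and at most 0.105 in LN229, where it was not tested. In all, the 10 genes were tested in A549 and LN319, and 9 in NCI-H23 and LN229.

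**Figure D1:**
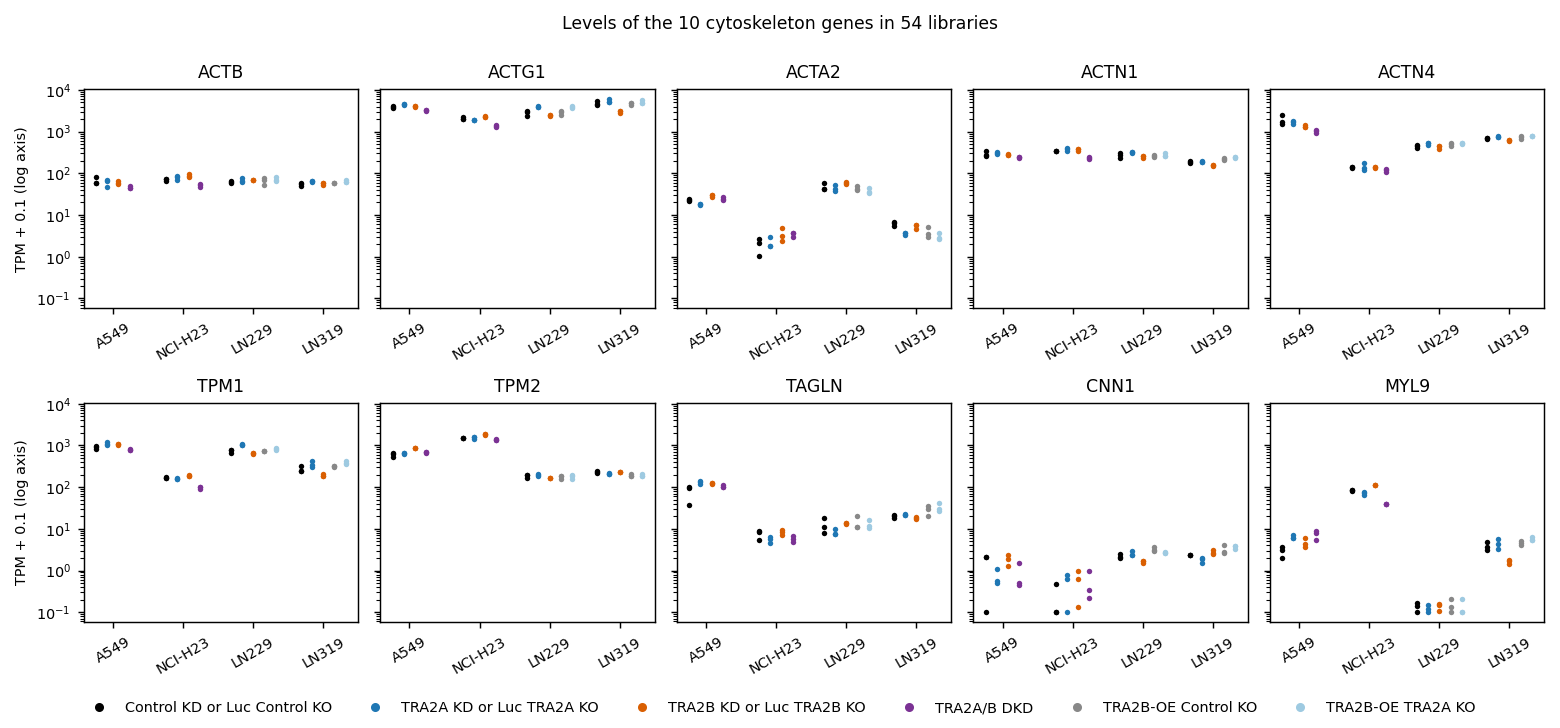
Deposited level of each of the 10 genes in every library, as TPM + 0.1 on a log axis, with a panel for each gene, the 4 cell lines along the x axis and a colour for each kind of condition. Each point is 1 library. *ACTG1* sits far above *ACTB* in all 4 lines, and *MYL9* is high in NCI-H23 and near the floor in LN229.

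In both lung lines, *ACTB*, *ACTG1*, *ACTN1*, *ACTN4* and *TPM1* were lower after depletion of both paralogs, while *ACTA2* did not pass. In A549, 6 of 10 genes passed an adjusted p of 0.05 (limma, Benjamini-Hochberg over 16405 genes) in TRA2A/B DKD against Control KD, 5 lower and 1 higher, while 30.6% of all genes passed, 16.3% lower and 14.3% higher. In NCI-H23, 7 of 9 passed and all 7 were lower, while 43.2% of all genes passed and 23.2% passed in the lower direction. The median log2 fold change of the genes was -0.27 in A549, against 0.03 over all genes, and -0.60 against 0.02 in NCI-H23. Summed epithelial markers moved too, from 9070 to 9290 TPM in A549 Control KD to 7800 to 7910 in DKD, and from 1910 to 1980 to 1370 to 1610 in NCI-H23, as did 6 summed fibroblast markers, of which 1 was above 1 TPM in A549 and 3 in NCI-H23 (8.94 to 22.4 against 6.48 to 7.48 TPM, and 34.4 to 39.1 against 17.1 to 21.2), and their part in the result was not tested. In bulk RNA, less RNA per cell and fewer cells of a kind cannot be told apart. Fold changes below are on the scaled log2(TPM + 0.1) scale and understate those of low genes, and the levels are the deposited TPM.

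*ACTG1* measured 3104, 3316 and 3333 TPM in A549 DKD, against 3760, 4002 and 4017 in Control KD. In NCI-H23 it measured 1273, 1334 and 1412 TPM in DKD, against 2021, 2232 and 2026. The groups did not overlap in either line. The log2 fold change was -0.35 ± 0.119 (SE, adjusted p = 0.0443) in A549 and -0.80 ± 0.0574 (adjusted p = 1.83e-06) in NCI-H23. The A549 call was lost when any single library other than Control KD replicate 3 was left out (adjusted p up to 0.142), with no filter on low genes (0.128), with a pseudocount of 1 (0.0509) and with those groups fitted alone (0.249), whereas the NCI-H23 call held with each library left out. *ACTB*, at far lower levels, measured 44.9, 48.6 and 44.4 TPM in A549 DKD against 58.7, 58.2 and 80.2, and 55.7, 47.1 and 52.4 in NCI-H23 DKD against 65.4, 74.7 and 71.1. It fell by 0.58 ± 0.126 (adjusted p = 0.0057) in A549 and by 0.60 ± 0.0859 (adjusted p = 0.000236) in NCI-H23. *ACTA2* did not pass in either line, with log2 fold changes of 0.01 in A549 and 0.82 ± 0.381 (adjusted p = 0.107) in NCI-H23, where its 3 DKD libraries (2.91, 3.64 and 3.66 TPM) lay above the 3 controls (1.98, 2.51 and 0.939).

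Of the alpha-actinins, *ACTN4*, a non-muscle form found in migrating cells, changed more than *ACTN1* in A549. Its levels were 1049, 1075 and 914 TPM in DKD against 1691, 1538 and 2455 in Control KD, a log2 fold change of -0.96 ± 0.138 (adjusted p = 0.00044). Without Control KD replicate 3, its highest control, the change was -0.82 and still passed. In NCI-H23, *ACTN4* was 109, 126 and 117 TPM against 145, 139 and 137 (-0.41 ± 0.134, adjusted p = 0.0282), and the call was lost without Control KD replicate 1, DKD replicate 1 or DKD replicate 3 (adjusted p up to 0.101), with the deposited TPM (0.0964) and with quantile normalization (0.2). *ACTN1*, the form enriched at focal adhesions and stress fibres, gave the stronger result in NCI-H23. It was 219, 245 and 228 TPM there against 343, 342 and 345 (-0.73 ± 0.0822, adjusted p = 4.24e-05). In A549 it was 250.3, 248 and 238 TPM against 263, 269.6 and 349 (-0.33 ± 0.0823, adjusted p = 0.012), a call lost without DKD replicate 3 (0.0585), with those groups fitted alone (0.0688), with the deposited TPM (0.0883) and with quantile normalization (0.386).

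The tropomyosins did not move alike. *TPM1* was 98.3, 90.8 and 103 TPM in NCI-H23 DKD against 165, 176 and 166, which is 57.6% of the control mean (log2 fold change -0.95 ± 0.0506, adjusted p = 2.28e-07). In A549 it was 786, 766 and 829 TPM against 844, 907 and 983 (-0.28 ± 0.082, adjusted p = 0.0258). The A549 call was lost without any single library other than Control KD replicate 3 (up to 0.0889), with no filter (0.0647), with those groups fitted alone (0.163), with the deposited TPM (0.104) and with quantile normalization (0.631). *TPM2* changed less than *TPM1* in NCI-H23, with 1370, 1387 and 1415 TPM against 1470, 1542 and 1528 (-0.28 ± 0.0556, adjusted p = 0.00214), and lost its call with the deposited TPM (0.127) and with quantile normalization (0.183). It did not pass in A549 (0.15 ± 0.142, adjusted p = 0.444).

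*MYL9*, which encodes the regulatory light chain that turns myosin II on, moved in opposite directions in the lung lines. In NCI-H23, where it was abundant, it was 39.9, 39.3 and 39.9 TPM in DKD against 83.4, 87.1 and 80.9, a log2 fold change of -1.23 ± 0.0676 (adjusted p = 2.88e-07). In A549, where it was scarce, it was 5.38, 8.78 and 7.87 TPM in DKD against 3.07, 3.59 and 1.88, a log2 fold change of 1.28 ± 0.316 (adjusted p = 0.0113). Fitted on those 2 groups alone, the A549 call was lost (adjusted p = 0.0654), and the difference between the lines was not tested. *TAGLN* did not pass in either, at 0.49 ± 0.35 (adjusted p = 0.318) in A549 and -0.50 ± 0.207 (0.0705) in NCI-H23, where it did without Control KD replicate 1 (0.0189) or DKD replicate 2 (0.0327) and with quantile normalization (0.0352). *CNN1* measured 0.362, 1.42 and 0.416 TPM in A549 DKD against 2.06, 2.06 and 0, a spread too wide for any call (adjusted p = 0.884).

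**Figure D2:**
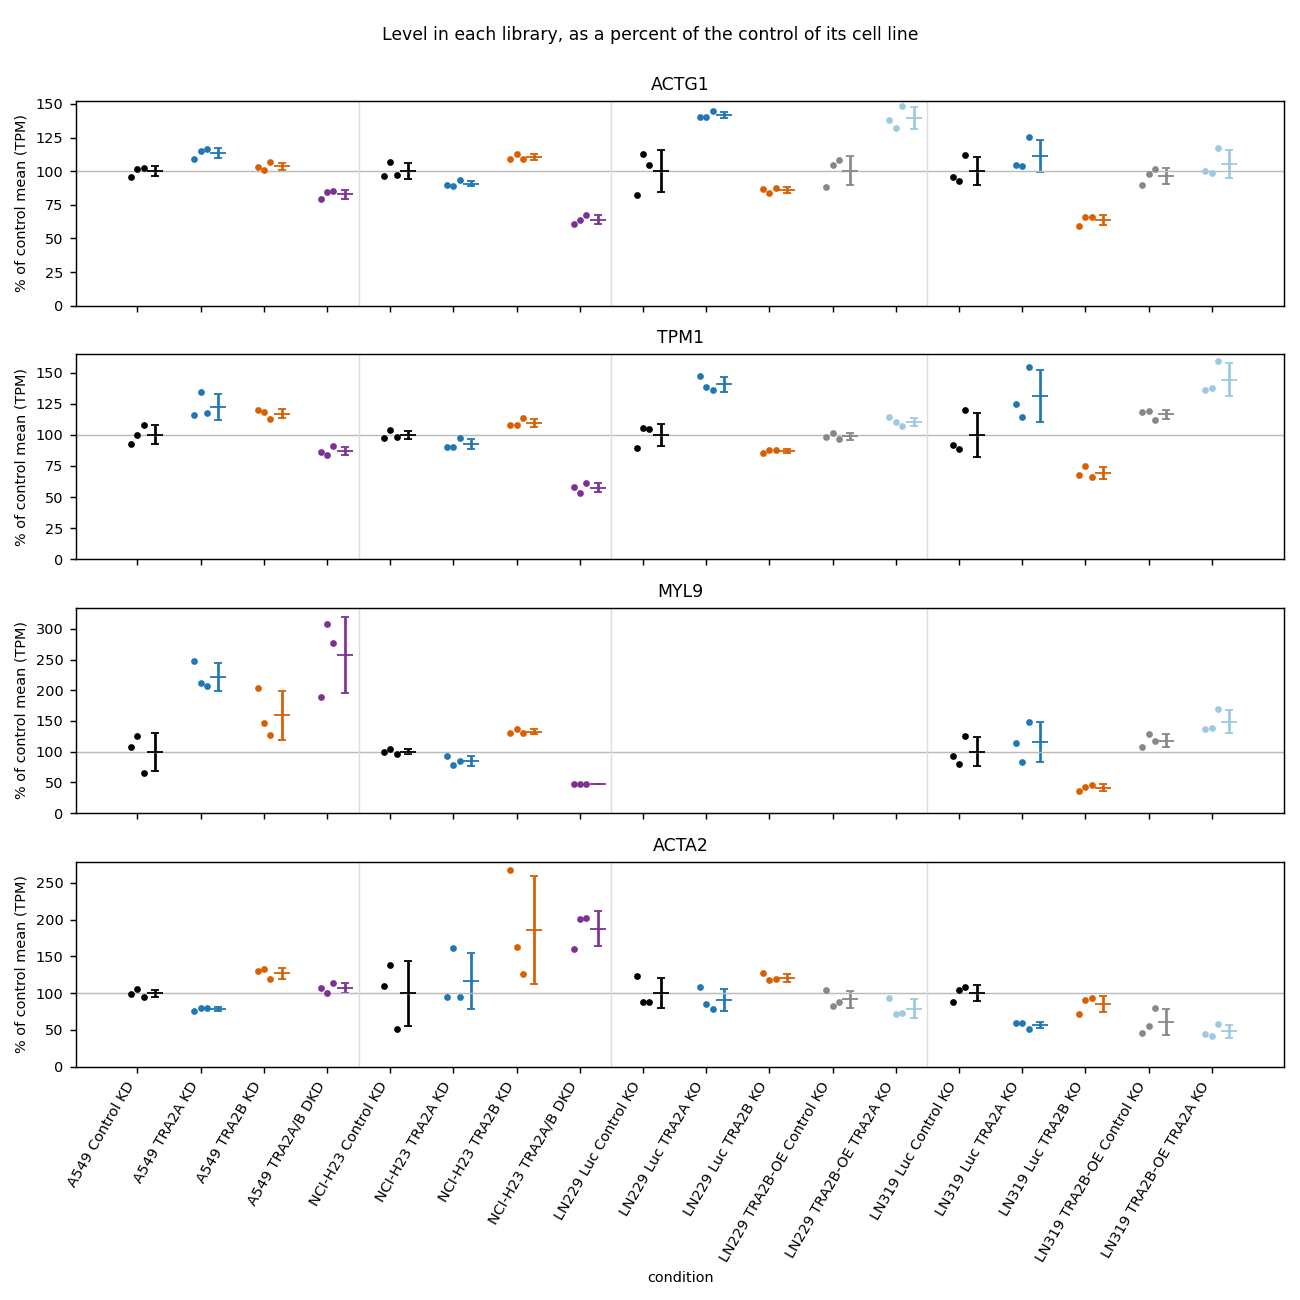
Deposited TPM of *ACTG1*, *TPM1*, *MYL9* and *ACTA2* in each library (points) as a percent of the mean of Control KD or Luc Control KO in its line, with the mean and SD of 3 libraries beside them. *ACTG1* and *TPM1* sit below their controls in both TRA2A/B DKD groups and in LN319 Luc TRA2B KO, and *MYL9*, not tested in LN229, sits above its control in A549 DKD and below it in NCI-H23 DKD.

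After single knockdowns, none of the genes passed (limma). In A549 the count was 0 of 10 for TRA2A KD, where 0.207% of all genes passed, and 0 of 10 for TRA2B KD, where 0.341% passed, although 5 and 6 of the genes had an unadjusted p under 0.05. In NCI-H23 it was 0 of 9 for TRA2A KD (0.976% of all genes) and 0 of 9 for TRA2B KD (0.196%), with 2 and 3 under an unadjusted p of 0.05. How many of all genes had an unadjusted p under 0.05 was not counted, here or below. Counts at that threshold therefore have no background and cannot be read as an excess. The A549 counts depended on Control KD replicate 3. Without it, *TPM1* (0.41, adjusted p = 0.00613) and *TAGLN* (0.46, 0.0137) passed in TRA2A KD, and *TPM1* (0.29, 0.0426) and *TPM2* (0.44, 0.00728) in TRA2B KD. The share of all genes passing without that library was not counted. *TPM2* also passed in A549 TRA2B KD with the deposited TPM (adjusted p = 0.0272) and with quantile normalization (0.0169).

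In A549, all 3 libraries of a single knockdown lay above the controls in deposited TPM for *TPM1*, *TPM2*, *TAGLN* and *MYL9*, without passing. So did *ACTG1* in TRA2A KD (4279 to 4573 against at most 4017) and *ACTA2* in TRA2B KD (27.6 to 30.7 against at most 24.45). *ACTA2* in TRA2A KD (17.6 to 18.6 against at least 22.1) and *ACTN4* in TRA2B KD (1256 to 1417 against at least 1538) lay below. How many of all genes separate in this way was not counted. *TPM1* measured 1053, 1227 and 1072 TPM in TRA2A KD and 1093, 1080 and 1028 in TRA2B KD, against at most 983 in Control KD. *TPM2* measured 887, 860.3 and 852 TPM in TRA2B KD, against 622, 651 and 517. *TAGLN* measured 122, 137 and 130.1 TPM in TRA2A KD and 124, 128 and 117 in TRA2B KD, against 93.6, 102 and 37.0. The low control value of *TAGLN* is again Control KD replicate 3. *MYL9* measured 7.05, 6.01 and 5.88 TPM in TRA2A KD, with a log2 fold change of 1.31 ± 0.316 (adjusted p = 0.182). In NCI-H23 *MYL9* was 77.6, 65.0 and 70.5 TPM in TRA2A KD (-0.23 ± 0.0676, 0.163) and 109.8, 115 and 109.4 in TRA2B KD (0.29 ± 0.0676, 0.181), on either side of its controls. Its call in TRA2B KD appeared with the deposited TPM alone (adjusted p = 0.035), among the scalings tried.

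Whether the double knockdown equals the sum of both single ones was tested as DKD minus TRA2A KD minus TRA2B KD plus Control KD on the log2 scale. In A549, 4 of 10 genes passed, all below the sum, while 14.7% of all genes passed and 8.89% passed below it. In NCI-H23, 6 of 9 passed, all below the sum, while 21% of all genes passed and 12.8% passed below it. *TPM1* lay below the sum by -1.04 ± 0.116 (adjusted p = 0.000336) in A549 and by -0.87 ± 0.0716 (2.46e-05) in NCI-H23. *ACTG1* gave -0.82 ± 0.168 (0.00934) and -0.70 ± 0.0812 (0.000216), and *ACTN1* gave -0.59 ± 0.116 (0.00768) and -0.84 ± 0.116 (0.000653). *TPM2* gave -0.77 ± 0.2 (0.0275) in A549 and -0.51 ± 0.0786 (0.00129) in NCI-H23, where *ACTB* (-0.997 ± 0.122, 0.000308) and *MYL9* (-1.30 ± 0.0955, 1.46e-05) also passed. These 6 NCI-H23 genes passed under each scaling, filter and left-out library tried, but not all with a fold change minimum. The A549 values depended on the scaling. With quantile normalization 0 of 10 passed, and *ACTG1* turned to 0.02 (adjusted p = 0.963). *ACTN1* lost its call with the deposited TPM too (0.216). Without Control KD replicate 3, *ACTB* (adjusted p = 0.0377), *ACTN4* (0.0134) and *TAGLN* (0.000162) passed as well, giving 7, with the share of all genes in that fit not counted. *ACTB* also passed without TRA2A KD replicate 3 (0.014), and *TAGLN* without Control KD replicate 1 (0.0464) or 2 (0.0315). The *TPM2* call in A549 was lost with 8 of the 12 libraries left out in turn, those other than the 3 controls and TRA2A KD replicate 2 (adjusted p up to 0.0706).

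**Figure D3:**
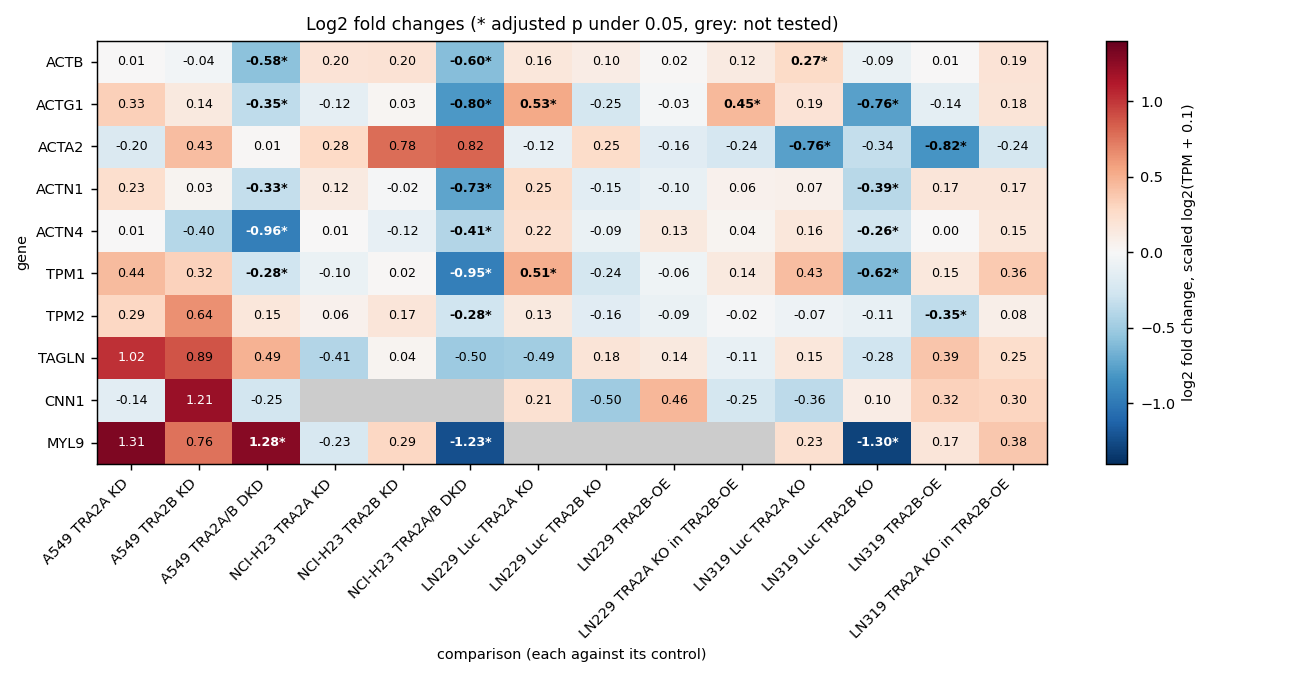
Log2 fold change, on the scaled log2(TPM + 0.1) scale, of the 10 genes (rows) in the 14 comparisons of a perturbation with its control (columns). Colour and number give the value, an asterisk marks an adjusted p under 0.05 and grey marks a gene not tested. The lower values collect in both TRA2A/B DKD columns and in LN319 Luc TRA2B KO, where *ACTN4* turns to 0.29 with quantile normalization.

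In the glioma lines, *TRA2A* knockout left most of the genes without a call. In LN229, 2 of 9 passed in Luc TRA2A KO against Luc Control KO, both higher, while 3.68% of all genes passed and 1.86% were higher. *ACTG1* measured 3966, 3974 and 4089 TPM against 2331, 3187 and 2962, a log2 fold change of 0.53 ± 0.12 (adjusted p = 0.0342). *TPM1* measured 1099, 1029 and 1015 TPM against 667, 785 and 783, a log2 fold change of 0.51 ± 0.0657 (adjusted p = 0.00617). Neither gene's knockout and control libraries overlapped. The *TPM1* call held with each library left out and was lost with those 2 groups fitted alone (adjusted p = 0.163), as was that of *ACTG1* (0.205). *ACTG1* lost its call without Luc Control KO replicate 1, its lowest control (0.39, adjusted p = 0.117), or without any of the 3 knockout libraries (up to 0.146).

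In LN319, 2 of 10 passed in Luc TRA2A KO, 1 in each direction, while 14.3% of all genes passed, 6.82% higher and 7.44% lower. *ACTB* measured 65.6, 62.3 and 66.0 TPM against 58.5, 50.6 and 56.8 (0.27 ± 0.0815, adjusted p = 0.0461). *ACTA2* measured 3.65, 3.63 and 3.18 TPM against 5.38, 6.38 and 6.70 (-0.76 ± 0.205, adjusted p = 0.0266). Both groups were apart from their controls, yet both calls were lost when any library other than Luc Control KO replicate 1 was left out (up to 0.17 for *ACTB* and 0.0808 for *ACTA2*) and with no filter on low genes. *TPM1*, at 338, 310.3 and 418 TPM against 248, 239 and 326, overlapped its controls and did not pass (0.43 ± 0.144, adjusted p = 0.0632), although it did with the deposited TPM (0.0478), with quantile normalization (0.0235), with a minimum of 5 TPM (0.0326), without Luc Control KO replicate 3 (0.0184) and without Luc TRA2A KO replicate 2 (0.0499). Summed fibroblast markers, 3 of 6 of them above 1 TPM, were 148 to 165 TPM in Luc TRA2A KO against 198 to 230. Most of each sum was *PDGFRA*, at 124 to 221 TPM over all LN319 libraries. Mitochondrial RNA took 13.22% to 15.03% against 12.08% to 12.82%. The part of either in these results was not tested.

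*TRA2B* knockout gave lower values in LN319. There 5 of 10 genes passed in Luc TRA2B KO, all lower, while 42.6% of all genes passed and 24% passed in the lower direction. *ACTG1* measured 2864, 3173 and 3171 TPM against 4614, 4466 and 5394, which is 63.6% of the control mean (-0.76 ± 0.132, adjusted p = 0.000663). *TPM1* measured 183, 203 and 179.9 TPM against 248, 239 and 326 (-0.62 ± 0.144, adjusted p = 0.00414). *MYL9* measured 1.35, 1.62 and 1.72 TPM against 3.52, 3.03 and 4.76, the largest change of the 10 (-1.30 ± 0.224, adjusted p = 0.000618). *ACTN1* measured 148, 157 and 156 TPM against 179.7, 186 and 194 (-0.39 ± 0.0602, adjusted p = 0.00032). All of these groups were apart from their controls, and the calls held with each library left out. *ACTN4* is the exception across scalings: at 597, 637 and 631 TPM against 682, 689 and 699 its log2 fold change was -0.26 ± 0.0671 (adjusted p = 0.00776), but 0.29 with quantile normalization (0.0184). *ACTB* (51.8, 57.9 and 58.3 TPM) and *TPM2* (232, 225 and 229 TPM) overlapped their controls and did not pass. Mitochondrial RNA took 18.33% to 20.58% of the TPM of these knockout libraries, against 12.08% to 12.82% in the controls. Summed fibroblast markers, mostly *PDGFRA*, were 250 to 252 TPM against 198 to 230. The part of either in the result was not tested.

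In LN229, 0 of 9 genes passed in Luc TRA2B KO, where 0.568% of all genes passed, and 2 of the genes had an unadjusted p under 0.05. *TPM1* was closest among the abundant genes, with 635, 657 and 652 TPM against 667, 785 and 783 (-0.24 ± 0.0657, adjusted p = 0.0869). Without Luc Control KO replicate 1, 4 of the genes passed, among them *TPM1* (-0.33, 0.00388) and *CNN1* (-0.54, 0.0452). The share of all genes passing without that library was not counted, and 0.568% belongs to the full fit.

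The knockouts of both paralogs were also compared with each other, a contrast added after these values had been seen. In LN229, 6 of 9 genes were lower in Luc TRA2B KO than in Luc TRA2A KO, while 34.1% of all genes passed and 18% were lower. *ACTG1* (-0.78 ± 0.12, adjusted p = 0.000878), *TPM1* (-0.75 ± 0.0657, 9.64e-05), *ACTN1* (-0.40 ± 0.0925, 0.00632) and *CNN1* (-0.71 ± 0.153, 0.00437) kept their calls with each library left out. *ACTN4* (0.0151) lost its call without 3 of the 6 libraries, Luc TRA2A KO replicates 2 and 3 and Luc TRA2B KO replicate 1 (up to 0.0568), and *TPM2* (0.0443) without any 1 of the 6 (up to 0.127). *ACTA2* did not pass, but it did, and was higher, without Luc TRA2A KO replicate 1 (0.49, adjusted p = 0.0319) and with a minimum of 5 TPM (0.41, 0.0468). *TAGLN* passed, higher, when no other groups were in the fit (0.67, 0.00623). In LN229, 6 summed fibroblast markers were 75.0 to 81.2 TPM in Luc TRA2B KO against 45.8 to 49.9 in Luc TRA2A KO, and epithelial markers 142 to 148 against 230 to 240, and their part in the result was not tested. In LN319, 7 of 10 were lower, while 47.2% of all genes passed and 26.1% were lower. *TPM1* (-1.05 ± 0.144, adjusted p = 7.81e-05), *ACTG1* (-0.95 ± 0.132, 8.86e-05) and *MYL9* (-1.53 ± 0.224, 0.000127) led, and *ACTN1*, *ACTN4* and *ACTB* also passed. *TAGLN* passed (0.0408) but not without any 1 of the 6 libraries (up to 0.127), and *ACTN4* turned from -0.41 to 0.11 (0.321) with quantile normalization. Fibroblast markers in LN319, mostly *PDGFRA*, summed to 250 to 252 TPM against 148 to 165. Mitochondrial RNA took 18.33% to 20.58% against 13.22% to 15.03%, and the part of these markers and of mitochondrial RNA was not tested either. The values of *ACTG1* and *TPM1* in Luc Control KO lay between both knockouts in mean in both lines.

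Overexpression of *TRA2B* by itself moved few of the genes. In LN229, 0 of 9 passed in TRA2B-OE Control KO against Luc Control KO, where 1.03% of all genes passed, and 1 had an unadjusted p under 0.05. In LN319, 2 of 10 passed, both lower, while 4.31% of all genes passed and 2.16% were lower. *ACTA2* measured 2.85, 3.40 and 4.94 TPM against 5.38, 6.38 and 6.70 (-0.82 ± 0.205, adjusted p = 0.0434), and *TPM2* measured 184, 185 and 201 TPM against 239.6, 218 and 229 (-0.35 ± 0.0795, adjusted p = 0.0314). Neither group overlapped its controls, but neither call was firm: *ACTA2* passed only without TRA2B-OE Control KO replicate 3 and *TPM2* only without that library or Luc Control KO replicate 2 when 1 library at a time was left out (otherwise up to 0.183 and 0.119). Summed fibroblast markers, mostly *PDGFRA*, were 261 to 271 TPM against 198 to 230. Smooth muscle and pericyte markers were 18.6 to 20.6 against 14.3 to 15.7, and the part of both marker sets was not tested. Without TRA2B-OE Control KO replicate 3, *TAGLN* passed as well (0.60, adjusted p = 0.023), and *ACTN1* passed with the deposited TPM (0.26, 0.0185) and with quantile normalization (0.28, 0.016).

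*TRA2A* knockout in TRA2B-OE cells was compared with TRA2B-OE Control KO to ask what remains of the response when *TRA2B* is abundant. In LN229, 1 of 9 passed and was higher, while 6.07% of all genes passed and 2.43% were higher. This was *ACTG1*, at 3894, 3730 and 4185 TPM against 2498, 2952 and 3069 (0.45 ± 0.12, adjusted p = 0.0435), a call lost without any library other than TRA2B-OE Control KO replicate 3 (up to 0.144). *TPM1* measured 849.8, 819 and 797 TPM against 733, 755 and 717 (0.14 ± 0.0657, adjusted p = 0.237). In LN319, 0 of 10 passed, while 2.77% of all genes passed, and 4 had an unadjusted p under 0.05. *TPM1* measured 368, 373 and 432 TPM there against 321, 322 and 304 (0.36 ± 0.144, adjusted p = 0.204).

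The difference between the *TRA2A* knockout responses in TRA2B-OE and Luc cells was tested directly, and 0 genes passed in either line, where 0% of all genes passed in LN229 and 0.0207% in LN319. In each line 1 of the genes had an unadjusted p under 0.05. In LN229 this was *TPM1*, with a difference of -0.37 ± 0.0929 (95% interval -0.57 to -0.17, adjusted p = 0.598). In LN319 it was *CNN1*, with 0.66 ± 0.278 (adjusted p = 0.591). For *ACTG1* the intervals of the difference ran from -0.45 to 0.29 in LN229 and from -0.41 to 0.40 in LN319, so differences of that size were not detectable.

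To place the 10 genes in their pathway, 87 other genes were listed in 6 groups by role, and between 69 and 76 of them were tested in a line. In A549 DKD, 26 fell and 5 rose of 72 tested, where 16.3% of all genes were lower and 14.3% higher, with a median log2 fold change of -0.30 against 0.03 over all genes. In NCI-H23 DKD, 36 fell and 4 rose of 69, where 23.2% of all genes were lower, with a median of -0.36 against 0.02. Among nucleation and turnover factors 9 of 25 fell in A549 and 14 of 25 in NCI-H23, led by the capping protein subunit *CAPZA1* (-0.92) in A549, the formin *DIAPH3* (-1.08) in NCI-H23 and the depolymerizing factor *DSTN* (-0.85 and -0.89). The kinase *MYLK*, which phosphorylates the light chain encoded by *MYL9*, fell by 1.504 ± 0.105 in A549 (adjusted p = 4.07e-06) and by 1.35 ± 0.344 in NCI-H23 (0.0085), together with the myosin heavy chain *MYH10* (-1.06 and -0.94) and the kinase *ROCK2* (-1.22 and -0.71). The crosslinker *FLNA* fell by 0.74 and 0.60, and *CNN2*, a relative of *CNN1*, by 1.00 and 0.89.

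The group of *SRF* and MRTF genes and YAP targets held 4 of the 5 rises in A549 DKD, with 2 falls among its 13 tested genes. Of all genes, 14.3% were higher and 16.3% lower there. *ANKRD1* (2.95 ± 0.156, adjusted p = 1.04e-06), *CTGF* (1.62 ± 0.151, 2.51e-05) and *CYR61* (1.27 ± 0.193, 0.000625), all well-known YAP targets, led. In NCI-H23 DKD, 2 rose and 6 fell of 11 in that group, where 43.2% of all genes passed and 23.2% were lower. *VCL*, which links filaments to adhesions, fell by 1.42 ± 0.0831 (4.52e-07). *CTGF* was also higher in NCI-H23 TRA2A KD (0.62 ± 0.0711, adjusted p = 0.00228), in LN319 Luc TRA2A KO (1.403 ± 0.22, 0.00139) and in LN229 Luc TRA2A KO (0.68 ± 0.158, 0.036). It was lower in LN229 Luc TRA2B KO (-0.92 ± 0.158, 0.031), where it was the single listed gene of 75 to pass and 0.568% of all genes passed.

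In LN319 Luc TRA2B KO, 48 of 76 listed genes fell and 2 rose, where 24% of all genes were lower, with a median of -0.42 against 0.02. Nucleation and turnover factors fell in 22 of 25, led by *DSTN* (-1.01), profilin *PFN1* (-0.93) and the monomer-binding *TMSB10* (-0.89). *MYL6* (-0.94) and *MYL12B* (-0.90), other light chains of myosin II, and *TAGLN2* (-0.99), a relative of *TAGLN*, were among the rest. *TRA2A* knockout gave 11 rises and 1 fall of 75 in LN229, where 1.86% of all genes were higher, and 11 rises and 3 falls of 76 in LN319, where 6.82% were. In LN229 they included the actin binders *CNN2* (0.50), *CALD1* (0.48) and *CNN3* (0.45), and the fall was *FSCN1* (-0.43). The single knockdowns in A549 gave 0 calls of 72 and NCI-H23 TRA2B KD 0 of 69. NCI-H23 TRA2A KD gave 1 rise and 3 falls of 69, where 0.976% of all genes passed. TRA2B-OE gave 0 calls in LN229 and 1 in each direction of 76 in LN319, where 4.31% of all genes passed. *TRA2A* knockout in TRA2B-OE cells gave 4 rises and 2 falls of 75 in LN229, where 6.07% of all genes passed. In LN319 it gave 3 rises of 76, where 2.77% of all genes passed. *CTGF* (1.02 ± 0.22, adjusted p = 0.0309) and *ANKRD1* (0.99 ± 0.183, 0.0191) were among these LN319 rises.

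**Figure D4:**
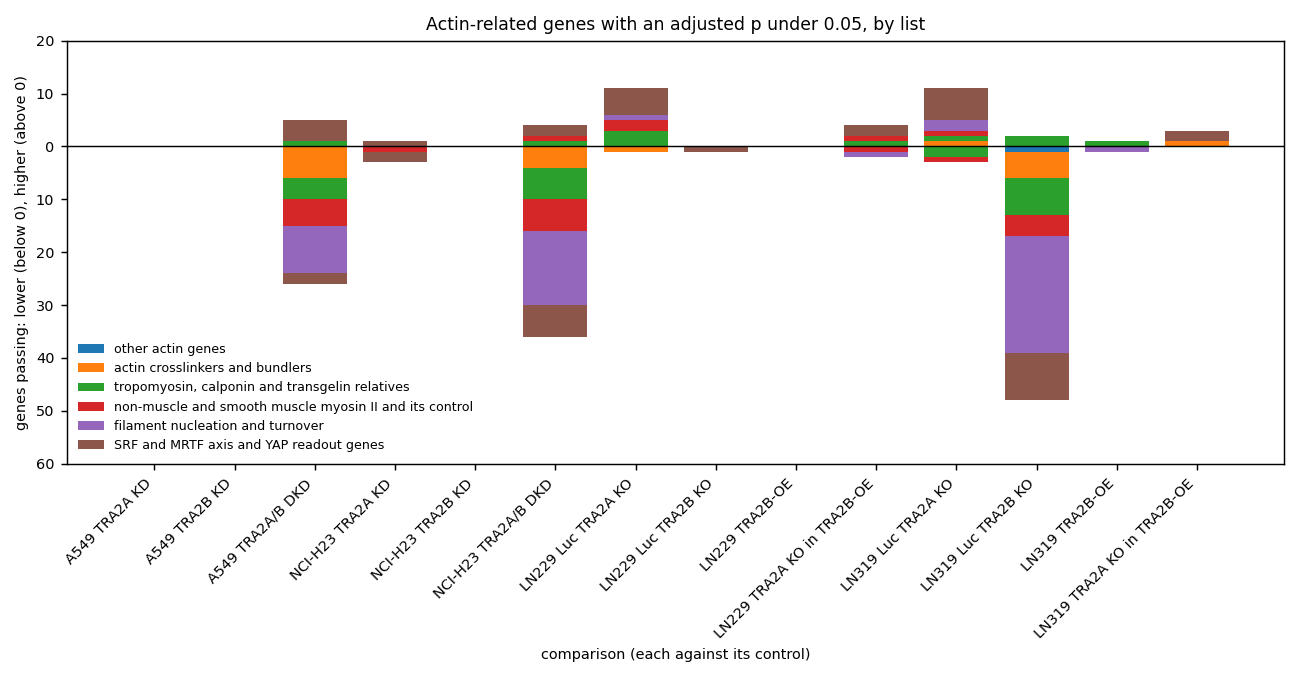
Number of the listed actin-related genes with an adjusted p under 0.05 in each of the 14 comparisons (x axis), higher above 0 and lower below 0, coloured by list. The lower counts are 26, 36 and 48 in A549 DKD, NCI-H23 DKD and LN319 Luc TRA2B KO, and the higher counts reach 11 in both Luc TRA2A KO comparisons.

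Among the 8 genes tested in all 4 lines, *ACTG1* passed in 5 of the 14 comparisons with a control, *TPM1* in 4, *ACTB*, *ACTN1* and *ACTN4* in 3 each, *ACTA2* and *TPM2* in 2 each and *TAGLN* in 0. For *ACTG1*, *TPM1* and *ACTN4* the genes of most like pattern were sought among 13362 genes as those with the smallest mean absolute difference in log2 fold change over the 14 comparisons, several of which share controls. For *ACTG1* these were *SMS* (0.102), *C1QBP* (0.105), *CLIC1* (0.107), *WDR1* (0.108) and *GRPEL1* (0.111), of which *WDR1*, a cofactor of filament disassembly, is on the actin lists. For *TPM1* the nearest was *ACTG1* (0.127), followed by *SMS* (0.15), *CALD1* (0.151), *GRPEL1* (0.151) and *ILK* (0.154). For *ACTN4* they included *GPI* (0.0645), *CKAP2* (0.0857), *PRPF6* (0.0876) and *SMC3* (0.0914), none of which is on the lists.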

How the data were processed

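Poly(A)-selected, strand-specific libraries of 4 cell lines were analysed, 3 per condition. The authors quantified each library with kallisto 0.48.0 and deposited gene-level TPM, transcript levels relative to a fixed total, in a table for each line. The submitters' processing notes also name STAR 2.7.3. Depth cannot be read from TPM. Every column matched a sample's labels, and no pair of libraries held identical values. Genes reaching 1 TPM in 4 or more libraries of a line were kept. Scaling factors came from trimmed means of M values without weights (trims 0.3 and 0.05), and scaled values were transformed to log2(TPM + 0.1) and fitted over all conditions of the line with limma 3.58.1 (trend, two-sided, R 4.3.3). P-values were adjusted by Benjamini-Hochberg over all genes tested in the comparison, and a gene passed below 0.05. The fits gave 14 comparisons with controls, 4 tests of differences and a contrast of both knockouts in LN229 and in LN319, added after the data had been seen. The script was checked on simulated data.

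The 10 genes, the lists and the tests were chosen with earlier results of these data known. Values are named for all 10 genes. From the lists, the 3 genes per list of largest absolute change among those passing in a comparison, with groups that do not overlap, could be named, and for the genes that passed in most comparisons those of most like pattern, of which 1 is not reported here. *TPM4* and markers were named after their values were seen. *CCN1*, *CCN2*, *MRTFA* and *MRTFB* are listed as *CYR61*, *CTGF*, *MKL1* and *MKL2*. Promoter windows came from RefSeq (GRCh38.p14), positions and coding sequences from Gencode v44 on hg38. Promoters of *ACTB*, *TAGLN* and *MYL9* were not analysed here. Alternatives were a pseudocount of 1, no filter, a minimum of 5 TPM, TPM as deposited, quantile normalization, a replicate block, the compared groups alone, a minimum absolute log2 fold change of 1 and each library left out. Figures were drawn with matplotlib 3.10.9.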

Additional observations from a re-analysis of the deposited data

Results flagged for a closer look

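Under the test of non-additivity, the response to the double knockdown differed from the sum of both single responses for 4 genes in A549 and 6 in NCI-H23. On the log2 scale the A549 differences were -0.82 for *ACTG1*, -0.59 for *ACTN1*, -1.04 for *TPM1* and -0.77 for *TPM2*. Those in NCI-H23 were -0.997 for *ACTB*, -0.70 for *ACTG1*, -0.84 for *ACTN1*, -0.87 for *TPM1*, -0.51 for *TPM2* and -1.30 for *MYL9*.

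In 3 cases every library of a group lay above its A549 controls and every library of the matching group lay below its NCI-H23 controls. How many of all genes did so was not counted, so the 3 cases have no background. For *ACTG1* in TRA2A KD the log2 fold change was 0.33 in A549 and -0.12 in NCI-H23, 0.45 apart, and the A549 value turned to -0.15 with quantile normalization. For *MYL9* the values were 1.31 and -0.23 in TRA2A KD, 1.54 apart, and 1.28 and -1.23 in DKD, 2.51 apart. These differences between lines were not tested, since the tables were made separately. No test for a single outlying value was run within groups of 3 libraries.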

How the results depend on the processing

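The direction turned under quantile normalization alone among the settings tried. *ACTG1* became -0.15 in A549 TRA2A KD and 0.0175 in A549 non-additivity, and *ACTN4* became 0.0572 in A549 non-additivity, 0.29 in LN319 Luc TRA2B KO and 0.11 in LN319 Luc TRA2B KO against Luc TRA2A KO. Under that setting 1 gene passed in A549 TRA2B KD and 0 in A549 non-additivity. With TPM as deposited, 1 passed in A549 TRA2B KD and 1 in NCI-H23 TRA2B KD. With TPM as deposited, the median log2 fold change of all genes was -0.12 in A549 TRA2A KD, 0.11 in A549 DKD and 0.26 in A549 non-additivity. It was 0.12 in NCI-H23 TRA2B KD, 0.17 in NCI-H23 DKD, 0.12 in LN319 Luc TRA2B KO and 0.16 between the LN319 knockouts. In the main fits these medians lay between -0.05 and 0.03.

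When a fit held no groups beyond those compared, 2 genes passed in A549 DKD, 0 in LN229 Luc TRA2A KO, 0 in LN229 TRA2B-OE TRA2A KO, 1 in LN319 Luc TRA2A KO and 0 in LN319 TRA2B-OE. With no filter, the counts were 1 in LN229 Luc TRA2A KO and 0 in LN229 TRA2B-OE TRA2A KO, LN319 Luc TRA2A KO and LN319 TRA2B-OE. A minimum absolute log2 fold change of 1 left 1 gene each in A549 DKD, NCI-H23 DKD, both non-additivity tests and LN319 Luc TRA2B KO, 2 between the LN319 knockouts and 0 elsewhere, by its own construction. The cause of the other shifts was not tested.

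With each library left out in turn, counts ran from 0 to 2 in A549 TRA2A KD, 0 to 2 in TRA2B KD, 3 to 7 in DKD and 3 to 7 in non-additivity, from 6 to 8 in NCI-H23 DKD, and stayed at 6 in its non-additivity. They ran from 1 to 2 in LN229 Luc TRA2A KO, 0 to 4 in Luc TRA2B KO, 0 to 1 in TRA2B-OE TRA2A KO and 4 to 6 between its knockouts. In LN319 they ran from 0 to 2 in Luc TRA2A KO and 0 to 3 in TRA2B-OE. They were 6 between its knockouts with any library left out, against 7 with all, and stayed at 5 in Luc TRA2B KO. The share of all genes passing was not counted for fits with a library left out or for the other settings.

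The main fits did not pair samples by replicate number. Deviations of same-numbered libraries correlated between -0.154 and 0.212, and no comparison had every pair above 0.1. These values do not exclude a weak pairing or one of single genes. In A549 TRA2B KD, same-numbered pairs (0.0319 to 0.0799) lay above all others (at most 0.0199). *ACTA2* was highest in replicate 1 of every LN229 condition. With a replicate block, 4 genes passed in A549 DKD, 3 in LN319 Luc TRA2A KO, 7 between the LN229 knockouts and 9 between those of LN319, and the other counts did not move. *ACTG1* (adjusted p = 0.0859) and *TPM1* (0.051) lost their calls in A549 DKD, while, among others, *TPM1* in LN319 Luc TRA2A KO (0.0302), *ACTA2* between the LN229 knockouts (0.00241) and *CNN1* between those of LN319 (0.0292) gained one. Values that passed or had an unadjusted p under 0.05 in the main fits were followed over all settings other than left-out libraries. Counted once per setting, 534 kept their direction and side of the threshold. Of the rest, 42 lost a call, 16 gained one and 5 turned direction. Depth is unknown, so the low values of *CNN1*, *MYL9* in 3 lines and *ACTA2* in NCI-H23 and LN319 carry counting error of unknown size, and 3 libraries per group limit the precision of every value.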
